A study of Mus musculus with 24 samples.

Results

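The genes described here carry out dopamine synthesis, storage, reuptake, breakdown and reception. There are 9 of them, namely Th, Ddc, Slc6a3, Slc18a2, Drd1, Drd2, Ppp1r1b, Adora2a and Maoa, out of 55471 genes counted in the mouse hypothalamus. They were chosen by name with earlier results of these data known, and all 9 passed the filter on low counts that left 18992 genes to test. The RNA came from adult male wild-type C57BL/6J mice with a gastric catheter and free access to chow. ExpOF mice received a liquid diet with added sucrose through the catheter until day 14, and control mice received sterile water at the same flow rates. One set of mice was sampled at the end of overfeeding (d14), and the other 3 days into recovery (d14+3), when mice of both groups were infused with sterile water. Each of the 4 groups held 6 mice and 1 library per mouse, and the study left out 1 control library for poor RNA quality. The means in the study's table matched the libraries when Control d14 replicate 4 was left out, so Control d14 has 5 libraries here and 23 are used in all.

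Dopamine is made from tyrosine in 2 enzyme steps, packed into vesicles, released onto receptors and taken back up by a transporter. The hypothalamus has dopamine neurons of its own. Those of the arcuate nucleus hold back prolactin release from the pituitary, and Th neurons of this region also take part in the control of feeding. The dopamine neurons of the neighbouring ventral midbrain express the dopamine transporter strongly and project to the striatum, where medium spiny neurons carry dopamine receptors, the phosphoprotein DARPP-32 and, in 1 of the 2 main classes, an adenosine receptor encoded by Adora2a. In a dissected piece of tissue the number of cells that express a gene and the RNA per cell cannot be told apart.

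The total count assigned to genes ranged from 8928182 to 34848437 over all 24 libraries. The labels place 3 mice of every group in a July and 3 in a September cohort. They also give 2 extraction rounds, with replicates 1 to 3 of every group in round 1 and replicates 4 to 6 in round 2. The RNA integrity number (RIN) was 8.0 and 8.6 in the September mice of Control d14 that were used, and 9.6 to 10.0 in the July mice of that group and all ExpOF d14 libraries. It was 7.2 to 9.9 in Control d14+3 and 8.8 to 10.0 in ExpOF d14+3. The Control d14+3 libraries of round 1 had 9.3 to 9.9 and those of round 2 had 7.2 to 7.9. The labels give 9.8 for the library left out. No library was found to be a copy of another of its own group, and libraries of different groups were not compared for this. The 4 groups were fitted together with edgeR's quasi-likelihood test, and a gene was called when its adjusted p-value (Benjamini-Hochberg, over all 18992 genes) was under 0.05. Levels are given as CPM, counts scaled to library size with TMM. P-values measure the spread between mice.

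RefSeq start sites on GRCm38.p6 were found for 7 of the 9 genes, with no entry for Ppp1r1b and Adora2a. The windows printed reach from 250 bases before to 10 bases after the start and run 5′ to 3′ on the strand of the gene. They are shown for the genes whose levels varied together or differed most in the comparisons (Th, Ddc and Slc6a3) and for Slc18a2, which shares a motif with Th but did not follow its level. Capitals mark the cAMP response element TGACGTCA and the GC box GGGCGG on either strand.
Th, chr7:142899986-142900245, minus strand: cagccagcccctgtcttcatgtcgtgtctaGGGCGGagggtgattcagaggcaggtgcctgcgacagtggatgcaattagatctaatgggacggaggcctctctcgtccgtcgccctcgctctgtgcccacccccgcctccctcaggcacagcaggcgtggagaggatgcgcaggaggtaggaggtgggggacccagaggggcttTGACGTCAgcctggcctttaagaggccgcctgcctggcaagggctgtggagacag
Slc18a2, chr19:59260628-59260887, plus strand: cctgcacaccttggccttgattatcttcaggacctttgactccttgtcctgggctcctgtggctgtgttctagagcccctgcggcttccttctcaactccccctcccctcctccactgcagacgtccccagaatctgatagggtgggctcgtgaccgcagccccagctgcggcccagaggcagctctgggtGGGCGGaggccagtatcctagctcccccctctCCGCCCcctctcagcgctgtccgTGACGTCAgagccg
Slc6a3, chr13:73536497-73536756, plus strand: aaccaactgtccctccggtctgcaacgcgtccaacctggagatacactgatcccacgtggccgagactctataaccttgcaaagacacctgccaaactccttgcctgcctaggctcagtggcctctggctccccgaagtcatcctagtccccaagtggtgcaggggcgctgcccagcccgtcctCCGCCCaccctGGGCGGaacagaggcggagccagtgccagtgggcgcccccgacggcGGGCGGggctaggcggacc
Ddc, upstream start, chr11:11898135-11898394, minus strand: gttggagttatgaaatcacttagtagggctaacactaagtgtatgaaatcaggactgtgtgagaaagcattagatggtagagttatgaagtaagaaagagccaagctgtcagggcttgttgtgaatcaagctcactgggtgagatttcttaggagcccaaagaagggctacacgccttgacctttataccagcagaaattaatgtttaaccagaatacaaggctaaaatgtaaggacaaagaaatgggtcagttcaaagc
Ddc, downstream start, chr11:11890399-11890658, minus strand: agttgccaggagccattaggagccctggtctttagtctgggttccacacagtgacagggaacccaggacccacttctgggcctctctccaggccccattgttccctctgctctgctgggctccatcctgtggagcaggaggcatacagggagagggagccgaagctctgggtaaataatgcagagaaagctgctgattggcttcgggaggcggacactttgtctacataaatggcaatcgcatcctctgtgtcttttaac
TGACGTCA stood in the windows of Th, from position -45, and of Slc18a2, from position -4, and in no other of the 9 windows of these genes. It was present in 1.67% of 32851 windows of the same length. GGGCGG stood in the windows of 6 genes (Th, Slc6a3, Slc18a2, Drd1, Drd2 and Maoa) and in 33.4% of all windows. Neither Ddc window held either motif, and their GC content was 40.8% and 55.0%, against 66.2% for Slc6a3 and a median of 52.3% over all windows. A match describes these letters only.

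Scaled to gene length, the genes differed widely in level. Maoa, the monoamine oxidase that breaks down dopamine, serotonin and noradrenaline, had the highest mean with 18.4 ± 1.27 RPKM (SD, n = 23). Th, tyrosine hydroxylase and the rate-limiting enzyme of synthesis, followed with 17.0 ± 5.75 RPKM, and Ddc, the decarboxylase that makes dopamine from L-DOPA, with 13.4 ± 2.35 RPKM. Drd2, the inhibitory D2 receptor, stood at 9.33 ± 1.31 RPKM, Ppp1r1b, which encodes DARPP-32, at 8.35 ± 2.12 RPKM and Slc18a2, the vesicular monoamine transporter, at 8.25 ± 1.75 RPKM. Slc6a3, the plasma membrane dopamine transporter, had a mean of 6.29 RPKM with an SD of 6.32 RPKM. Drd1, the stimulatory D1 receptor, reached 1.62 ± 0.383 RPKM and Adora2a, the adenosine receptor of striatal D2 cells, 0.669 ± 0.268 RPKM. The low level of the last 2 genes meant 85 to 244 counts per library for Drd1 and 18 to 101 for Adora2a, so counting error weighs most there.

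The genes also differed in how much they varied between mice of the same group. Slc6a3 ranged from 4.47 CPM in Control d14 replicate 1 to 102 CPM in Control d14 replicate 5, a 22.7-fold range that lay within a single group. The SD of its log2 CPM within groups was 1.14, larger than that of 99.8% of the 14173 genes with a mean of at least 50 counts. Adora2a came next with 0.50, and then Th (0.34), Ppp1r1b (0.33), Drd1 (0.29), Slc18a2 (0.29), Drd2 (0.18) and Ddc (0.17), against a median of 0.16 over those 14173 genes. Maoa was the most even gene, with an SD of 0.10 and a range of 69.4 to 86.4 CPM. The plot of levels by library shows this contrast between Slc6a3 and Maoa.

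**Figure D1:**
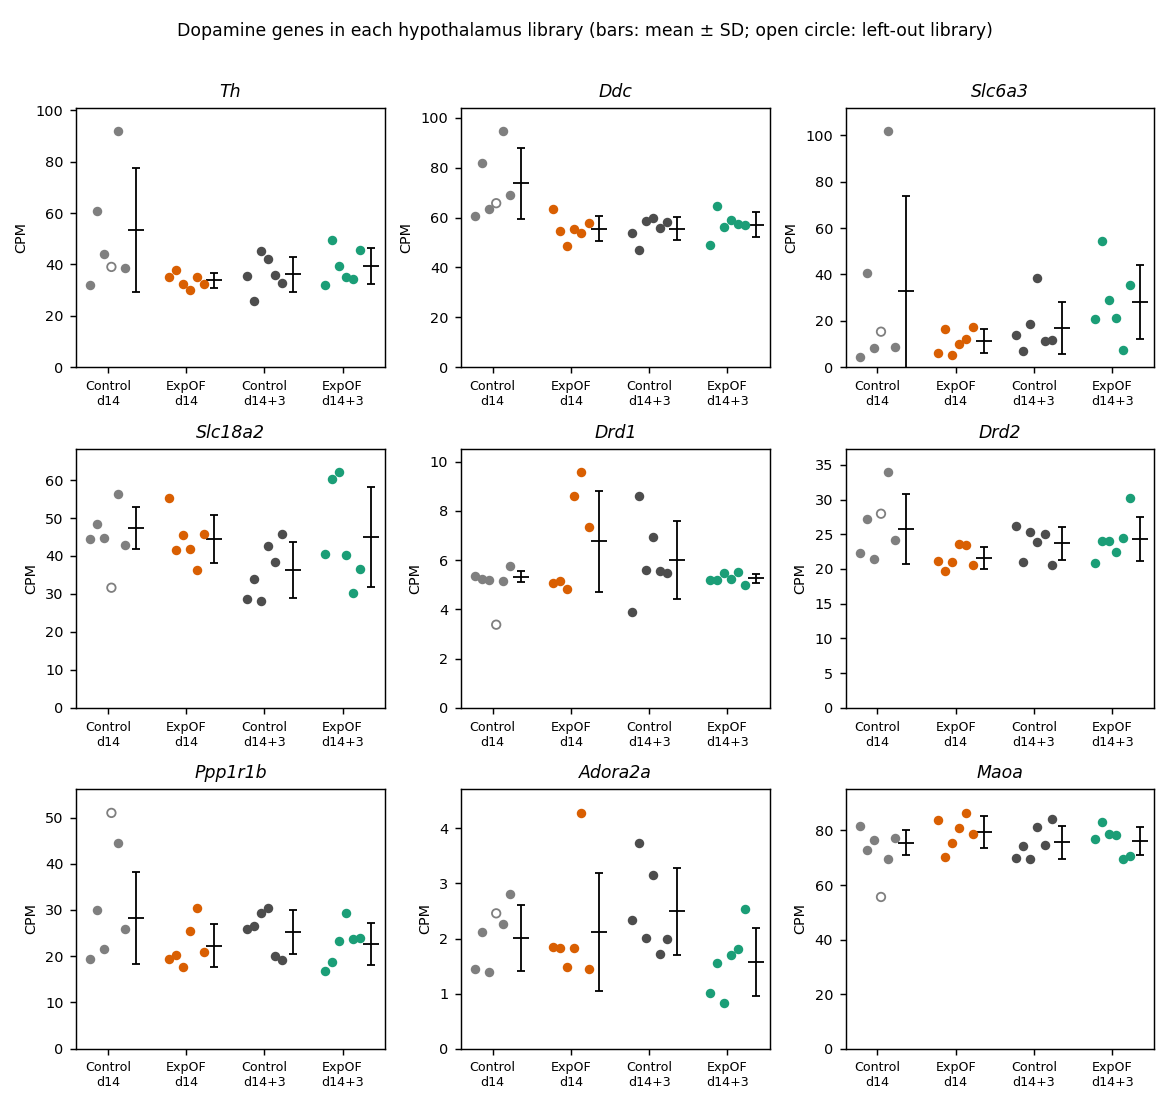
CPM (vertical axis, linear, from 0) of each of the 9 genes in every library of the 4 groups (horizontal axis). Filled points are the 23 libraries used, the open circle is Control d14 replicate 4, and bars give the mean ± SD of the filled points. One Control d14 library stands at the top of Th, Ddc, Slc6a3 and Drd2, the lower end of the Slc6a3 bar in that group is cut at 0, and Maoa is nearly level throughout.

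The comparison of ExpOF d14 with Control d14 asked what 14 days of overfeeding did to these genes. None of the 9 was called by edgeR, where 0.00527% of all genes were. With an unadjusted p-value under 0.05 there were 4 of the 9, Th, Ddc, Slc6a3 and Drd2, all lower in ExpOF mice. This was the case for 26.7% of all genes, with 13.1% higher and 13.6% lower, so a high share was also found across the transcriptome. None of the 9 had ExpOF and control mice without overlap, as 2.50% of all genes had. The median log2 fold change was -0.26 over the 9 genes and -0.02 over all genes tested. DESeq2 called 1 of the 9, Ddc, and 0.990% of the genes it tested, 0.447% of them lower.

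Th (ENSMUSG00000000214, chr7:142892752-142931128 on mm10, minus strand) stood at 31.9, 60.8, 44.1, 91.9 and 38.4 CPM in the 5 control mice of d14. In ExpOF d14 mice the lowest value was 29.9, the median 33.8 and the highest 37.9 CPM. The ExpOF values were tightly grouped and overlapped with the lowest control only. The log2 fold change was -0.66 ± 0.19 (SE), with an adjusted p-value of 0.135 in edgeR. In an exact permutation test of the single gene, the difference in mean log2 CPM was -0.56 (two-sided p = 0.026).

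Ddc (ENSMUSG00000020182, chr11:11814101-11898144, minus strand) showed the clearest separation on d14. Control mice had 60.5, 81.9, 63.3, 94.6 and 68.9 CPM, and ExpOF mice had a lowest value of 48.5, a median of 54.9 and a highest value of 63.5 CPM. Of the 6 ExpOF mice, 5 lay below every control. The log2 fold change was -0.41 ± 0.10 (SE; edgeR adjusted p = 0.135), and the exact permutation test gave p = 0.00866, where 0.00216 is the smallest value that 6 against 5 mice allow. The adjusted p-value was 0.0279 with DESeq2. The locus overlaps 1700042O10Rik on the opposite strand, and reads of both could have been counted together if strand was not used.

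Slc6a3 (ENSMUSG00000021609, chr13:73536747-73578672, plus strand) had by far the widest control values, 4.47, 40.5, 8.37, 102 and 8.45 CPM. ExpOF d14 mice had a lowest value of 5.37, a median of 11.1 and a highest value of 17.4 CPM, and thus lay inside the control range. The fitted log2 fold change of -1.57 ± 0.69 (SE; edgeR adjusted p = 0.162) was the largest of the 9 in size. On the log scale, which gives single high values less weight, the difference was -0.70 with p = 0.429 in the exact permutation test. The medians of the 2 groups were 8.45 and 11.1 CPM, in the opposite order to the fitted change.

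Drd2 (ENSMUSG00000032259, chr9:49340627-49408177, plus strand) ranged less. Control mice had 22.2, 27.1, 21.4, 34.0 and 24.2 CPM and ExpOF mice a lowest value of 19.7, a median of 21.1 and a highest value of 23.6 CPM. With 4 of the 6 ExpOF mice below every control, the log2 fold change was -0.26 ± 0.11 (SE; edgeR adjusted p = 0.145; exact permutation test p = 0.0541).

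The other 5 genes had unadjusted p-values above 0.05 on d14. Drd1 (ENSMUSG00000021478, chr13:54051183-54055658) had 5.15 to 5.74 CPM in control mice and 4.84 to 9.58 CPM in ExpOF mice, where 3 mice lay above and 2 below every control. Its log2 fold change was 0.32 ± 0.17 (SE; edgeR adjusted p = 0.224). Ppp1r1b (ENSMUSG00000061718, chr11:98348404-98357796, which overlaps 1700003D09Rik on the opposite strand) had a log2 fold change of -0.36 ± 0.19 (SE; edgeR adjusted p = 0.215). Slc18a2 (ENSMUSG00000025094, chr19:59260896-59296012, which overlaps Gm29261 on the opposite strand) had -0.09 ± 0.16 (adjusted p = 0.739), with 47.4 ± 5.44 CPM (SD, n = 5) in control and 44.4 ± 6.37 CPM (SD, n = 6) in ExpOF mice. Slc18a2 loads serotonin and noradrenaline as well as dopamine into vesicles. Of the 6 ExpOF mice, 3 lay below every control used, and 0 did with the left-out library included. Adora2a (ENSMUSG00000020178, chr10:75316877-75334784) had -0.03 ± 0.28 (adjusted p = 0.958) and Maoa (ENSMUSG00000025037, chrX:16619698-16687818) 0.07 ± 0.06 (adjusted p = 0.481).

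A single control mouse held the highest value of Th, Ddc, Slc6a3, Drd2 and Ppp1r1b among the 23 libraries, namely Control d14 replicate 5, a September mouse with a RIN of 8.0. Without this library the d14 log2 fold changes were -0.38 for Th, -0.30 for Ddc, -0.47 for Slc6a3, -0.14 for Drd2 and -0.13 for Ppp1r1b, and the adjusted edgeR p-values of these 5 genes ranged from 0.325 to 0.683. Without Control d14 replicate 1, which held the lowest Slc6a3 value, Th (-0.80), Ddc (-0.47) and Drd2 (-0.30) were called, together with 4220 genes in all. Within the July cohort the values were -0.40 for Th, -0.31 for Ddc, -0.73 for Slc6a3 and -0.18 for Drd2. Within the September cohort, whose 2 control mice on d14 were replicates 1 and 5, they were -0.98, -0.53, -2.30 and -0.38 in the same order. The sign of these 4 genes was the same in both cohorts, and no gene was called in either. Control d14 replicate 1 had Th at 31.9, Slc6a3 at 4.47, Drd2 at 22.2 and Ddc at 60.5 CPM. The September ExpOF d14 mice had 29.9 to 32.4, 5.37 to 17.4, 20.6 to 23.6 and 48.5 to 57.8 CPM in the same order. Only the Ddc value of that control mouse lay above all of theirs.

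**Figure D2:**
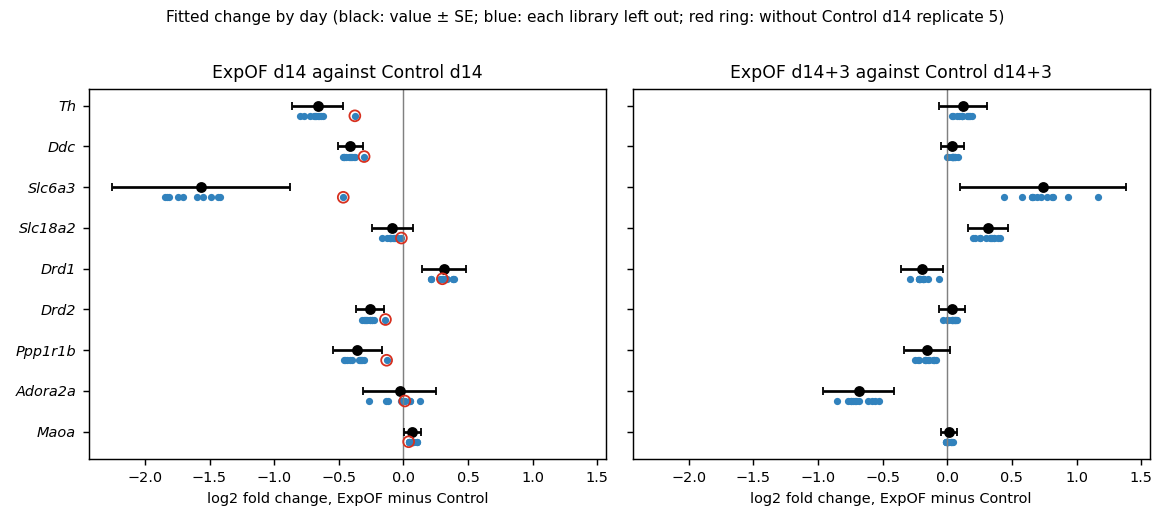
Log2 fold change of ExpOF over Control (horizontal axis) for each of the 9 genes (vertical axis) on d14 (left) and d14+3 (right). Black points are the edgeR values with their SE, blue points the values with each library of the compared groups left out in turn, and the red ring marks the value without Control d14 replicate 5. On d14 the value of Slc6a3 moved from -1.57 to -0.47 without that library, while Ddc moved from -0.41 to -0.30.

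After 3 days of recovery, none of the 9 genes was called between ExpOF d14+3 and Control d14+3, and none of the 18992 genes tested was (0.00%). Adora2a was the 1 gene of the 9 with an unadjusted p-value under 0.05, against 7.11% of all genes (2.91% higher, 4.20% lower). DESeq2 called none of the 9 and 0.343% of the genes it tested. None of the 9 had groups without overlap, as 0.421% of all genes had. Adora2a had a lowest value of 1.71, a median of 2.18 and a highest value of 3.74 CPM in control mice, and 0.823, 1.63 and 2.53 CPM in ExpOF mice. Of the 6 ExpOF mice, 4 lay below every control. The log2 fold change was -0.69 ± 0.27 (SE; edgeR adjusted p = 0.595), with p = 0.039 in the exact permutation test. It was -0.25 among July mice and -1.04 among September mice.

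The synthesis enzymes lay close together on d14+3. Th had 36.1 ± 6.89 CPM (SD, n = 6) in control and 39.3 ± 7.02 CPM (SD, n = 6) in ExpOF mice, a log2 fold change of 0.12 ± 0.19 (SE). Ddc had 55.6 ± 4.72 and 57.1 ± 5.01 CPM, a log2 fold change of 0.04 ± 0.09. The transporters had higher means in ExpOF mice within wide errors. Slc18a2 stood at 0.31 ± 0.15 (edgeR adjusted p = 0.704) and Slc6a3 at 0.74 ± 0.64 (edgeR adjusted p = 0.791). For Slc6a3, the lowest, median and highest values were 6.82, 12.8 and 38.6 CPM in control and 7.32, 25.2 and 54.3 CPM in ExpOF mice. The Slc6a3 log2 fold change was 1.51 among July mice and -0.25 among September mice, so its direction was not shared by the cohorts. Drd2 (0.04), Maoa (0.01), Ppp1r1b (-0.16) and Drd1 (-0.20) had exact permutation p-values between 0.320 and 0.851.

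Whether the difference between ExpOF and control mice was itself different on the 2 days was tested as an interaction. None of the 9 genes was called, nor was any other gene (0.00%), and DESeq2 called none either. An unadjusted p-value under 0.05 was found for 4 of the 9 (Th, Ddc, Slc6a3 and Drd1) and for 4.42% of all genes (2.78% higher, 1.64% lower). The d14+3 difference exceeded the d14 difference by 0.78 ± 0.27 (log2, SE) for Th, 0.45 ± 0.13 for Ddc and 2.31 ± 0.94 for Slc6a3, and for Drd1 it was 0.51 lower (-0.51 ± 0.23). The adjusted edgeR p-value was 0.903 for each of them. Without Control d14 replicate 5 the values were 0.50 for Th, 0.34 for Ddc and 1.21 for Slc6a3.

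The days were also compared within each diet. These comparisons share their groups with those between diets, so they are not independent of them. In control mice Ddc fell between d14 and d14+3, and it was the 1 gene of the 9 that was called, where 1.15% of all genes were. Its log2 fold change was -0.41 ± 0.10 (SE; edgeR adjusted p = 0.0301). All 6 Control d14+3 mice, at 47.1 to 59.9 CPM, lay below all 5 Control d14 mice, at 60.5 to 94.6 CPM (exact permutation test p = 0.00216, the smallest this design allows). Groups without overlap were found for 1.58% of all genes. The call was lost in 5 of the 11 fits that left out 1 library of the 2 groups. The adjusted edgeR p-value was 0.132 without Control d14 replicate 2, 0.0902 without Control d14 replicate 5, and 0.0645, 0.102 and 0.0606 without Control d14+3 replicates 1, 2 and 4. It was 0.0641 with all 24 libraries, 0.879 within July, 0.416 within September, and 0.00517 with DESeq2, which called 3.24% of its genes, 0.890% of them lower. The log2 fold change was -0.31 within July and -0.52 within September. The mean of Ddc in Control d14, 73.8 ± 14.2 CPM (SD, n = 5), thus lay above those of the other 3 groups, whose means of 55.5, 55.6 and 57.1 CPM lay within 1 SD of each other.

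Th and Slc18a2 were also lower in Control d14+3 than in Control d14 at an unadjusted p-value under 0.05. Th had a log2 fold change of -0.57 ± 0.19 (SE; edgeR adjusted p = 0.183) and Slc18a2 of -0.39 ± 0.16 (edgeR adjusted p = 0.292). For Slc18a2, 5 of the 6 Control d14+3 mice lay below every Control d14 mouse used (exact permutation test p = 0.026). With the left-out library, at 31.6 CPM, included, 2 of the 6 did (p = 0.0887, exact permutation test). Among all genes, 12.7% had an unadjusted p-value under 0.05 in this comparison, 6.81% higher and 5.93% lower. In ExpOF mice none of the 9 was called between the days, nor any other gene (0.00%), and Drd1 was the 1 gene with an unadjusted p-value under 0.05 (log2 fold change -0.34, edgeR adjusted p = 0.641), against 7.79% of all genes (5.39% higher, 2.40% lower). DESeq2 called none of the 9 here and 1.20% of its genes, and 0.832% of all genes had groups without overlap. Slc6a3 had a median of 11.1 CPM in ExpOF d14 and 25.2 CPM in ExpOF d14+3, and 5 of the 6 d14+3 mice lay above every d14 mouse (difference in mean log2 CPM 1.20, exact permutation test p = 0.039, edgeR adjusted p = 0.67). The order of the group means of log2 CPM was ExpOF d14+3, Control d14, Control d14+3 and ExpOF d14 for Slc6a3. For Th it was Control d14, ExpOF d14+3, Control d14+3 and ExpOF d14. Neighbours in these orders did not separate beyond their spread (exact permutation p between 0.229 and 0.807).

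The genes of synthesis and reuptake varied together from mouse to mouse. Deviations of log2 CPM from the group means were correlated over the 23 libraries for 36 pairs of genes and for each gene with 2 marker lists and the RIN, 63 relations in all. P-values came from 100000 permutations and were adjusted over the 63 relations. The permutations ran over all libraries regardless of group and cohort. The groups differed in spread (for Slc6a3 an SD of 41.3 CPM in Control d14 and 5.05 CPM in ExpOF d14), so these p-values are approximate. Among the 36 pairs, 12 had an adjusted p-value under 0.05 by Pearson's r and 6 by both coefficients. Th and Slc6a3 were the closest pair, with r = 0.87 (p = 1e-05, the smallest possible, adjusted p = 0.000158) and rho = 0.84 (p = 1e-05, adjusted p = 0.00021). Without the 2 libraries farthest out in Th, r was 0.77, and it was 0.85 within July and 0.88 within September. Th and Ddc had r = 0.83 (p = 1e-05) and rho = 0.73 (p = 0.00015), with 0.69 without the 2 farthest libraries, 0.57 in July and 0.90 in September. Ddc and Slc6a3 had r = 0.74 (p = 7e-05) and rho = 0.63 (p = 0.00196), with 0.56, 0.49 and 0.85 in the same order. Slc18a2, the vesicular transporter, followed them less closely, with r = 0.29 and rho = 0.28 to Th (permutation p = 0.177 and 0.194, adjusted p = 0.328 and 0.369). To Ddc it had r = 0.40 and rho = 0.41 (p = 0.0558 and 0.0539), and to Slc6a3 r = 0.39 and rho = 0.28 (p = 0.068 and 0.195), with -0.16 in July and 0.69 in September.

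The D2 receptor varied with Th and with Ppp1r1b. Drd2 had r = 0.72 (permutation p = 0.00014) and rho = 0.62 (p = 0.00199) to Th, and r was 0.54 without the 2 farthest libraries, 0.45 in July and 0.85 in September. To Ppp1r1b it had r = 0.68 (p = 0.00028) and rho = 0.67 (p = 0.00069), 0.59 without the 2 farthest, 0.72 in July and 0.78 in September. Ppp1r1b and Adora2a had r = 0.58 (p = 0.00358) and rho = 0.66 (p = 0.00079), with 0.60 without the 2 farthest, 0.51 in July and 0.77 in September. The relations of Ppp1r1b to Th (r = 0.55), Ddc (0.53) and Slc6a3 (0.55) rested on few libraries, since r was 0.20, 0.24 and 0.28 without the 2 farthest. No relation to the RIN had an adjusted p-value under 0.05. Slc18a2 stood nearest with r = -0.45 (p = 0.0308, adjusted p = 0.0923) and rho = -0.52 (p = 0.0118, adjusted p = 0.0531). Its r to the RIN was -0.65 in July and -0.39 in September, and that of Maoa -0.38 and -0.048. For the other genes this r was positive in July and negative in September, as for Th (0.42 and -0.50) and Ppp1r1b (0.52 and -0.33). The relations within a cohort were not tested.

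**Figure D3:**
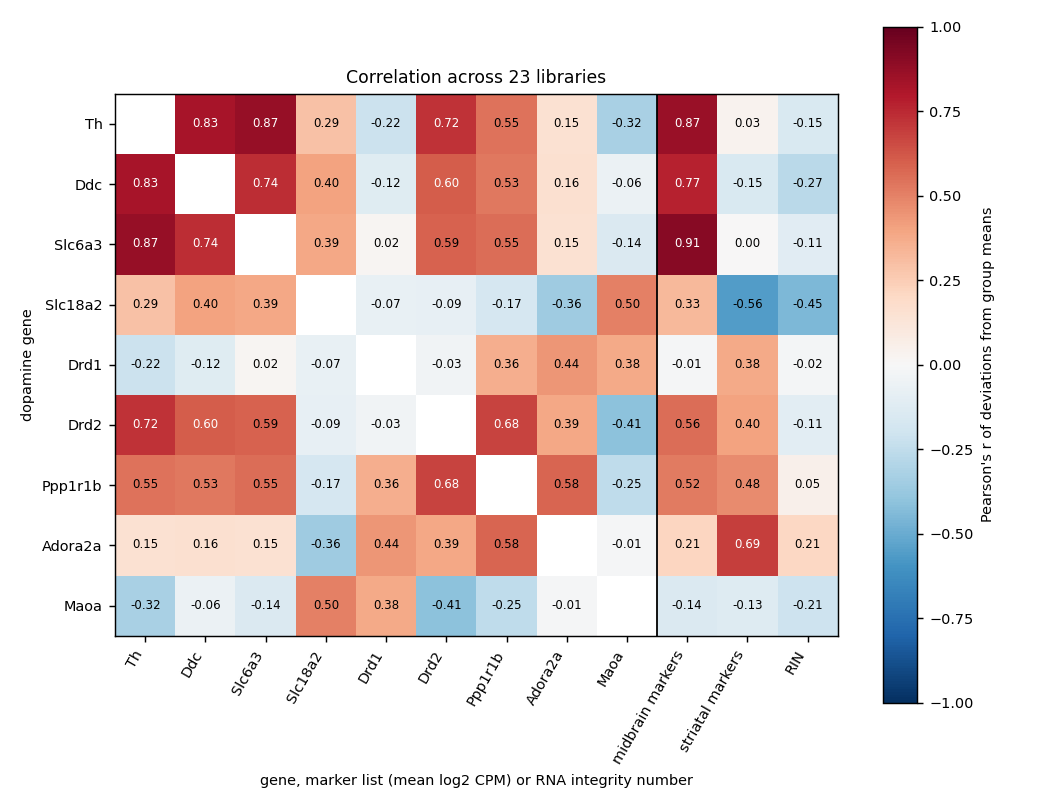
Pearson's r between the 9 genes (rows) and the same genes, the mean log2 CPM of the tested genes of 2 marker lists and the RIN (columns). It was computed on deviations from group means over 23 libraries. Red is positive and blue negative, and the block of Th, Ddc and Slc6a3 has values of 0.74 to 0.87.

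The mean of a list of midbrain dopamine neuron markers followed the same mice, though not every marker did. The list comprised Nr4a2, Pitx3, En1, En2, Foxa1, Foxa2, Lmx1b, Chrna6, Aldh1a1 and Sncg, of which some, such as Nr4a2 and Aldh1a1, are also expressed elsewhere in the brain. The mean log2 CPM was taken over the 9 tested genes of the list, without Pitx3, which did not pass the filter on low counts. It had r = 0.91 to Slc6a3 (p = 1e-05, adjusted p = 0.000158) and rho = 0.88 (p = 1e-05). Pearson's r was 0.84 without the 2 farthest libraries, 0.78 in July and 0.98 in September. For Th r was 0.87 and rho 0.83 (p = 1e-05 for both), and for Ddc 0.77 and 0.66 (p = 3e-05 and 0.00117). For Slc18a2 they were 0.33 and 0.24 (permutation p = 0.127 and 0.279). The library with the highest Th, Ddc and Slc6a3, Control d14 replicate 5, also held the highest value of 5 of the 10 markers. These were Chrna6, a nicotinic receptor subunit of these neurons, with 15.6 CPM (2.66 to 8.65 in the other 4 control mice), the transcription factors En1 (2.47 CPM), Foxa2 (0.813 CPM) and Pitx3 (0.542 CPM), and Aldh1a1 (138 CPM). Of the others, En2 and Sncg were highest in Control d14 replicate 2 and Lmx1b in Control d14+3 replicate 6. Foxa1 was highest in ExpOF d14 replicate 1 and Nr4a2 in ExpOF d14+3 replicate 6. En1 and Pitx3 were at 0 in 1 library each. The summed level of the list ranged from 119 to 225 CPM in Control d14, 120 to 143 in ExpOF d14, 123 to 174 in Control d14+3 and 145 to 179 in ExpOF d14+3. In the d14 comparison 4 of its 9 tested genes had an unadjusted p-value under 0.05, all lower, and none was called, against 26.7% of all genes and 13.6% lower. At any p-value 7 of the 9 were lower and 2 higher, Nr4a2 (log2 fold change 0.09) and Foxa1 (0.06). The share of midbrain tissue in each library was not measured, and its part in the differences of Th, Ddc and Slc6a3 was not tested.

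**Figure D4:**
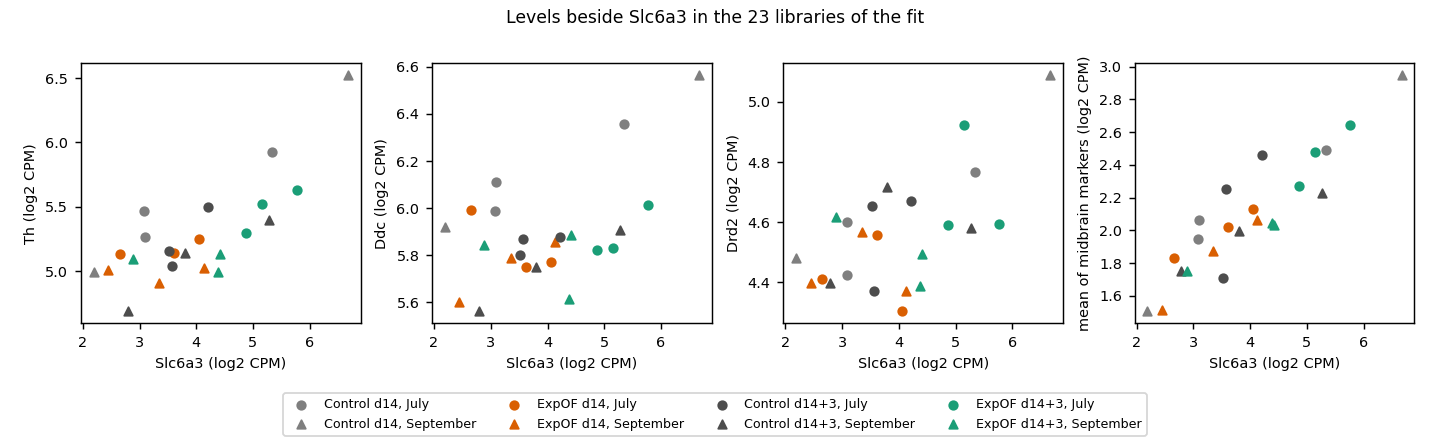
Level of Th, Ddc, Drd2 and the mean of the 9 tested midbrain markers (vertical axes, log2 CPM) against Slc6a3 (horizontal axis, log2 CPM) in the 23 libraries. Colours give the group, circles July and triangles September mice. The points rise from left to right in the Th and marker panels, and the library at the far right is Control d14 replicate 5.

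Striatal markers varied with Adora2a. The list of 16 genes (Rgs9, Pde10a, Adcy5, Gpr6, Syndig1l, Rasd2, Rxrg, Rarb, Foxp1, Ptpn5, Bcl11b, Scn4b, Actn2, Penk, Tac1 and Pdyn, of which several are also hypothalamic) had r = 0.69 to Adora2a (permutation p = 0.00023, adjusted p = 0.00181, rho = 0.62 with p = 0.00204). This became 0.47 without the 2 farthest libraries, and was 0.74 in July and 0.35 in September. To Ppp1r1b it had r = 0.48 and rho = 0.53 (permutation p = 0.022 and 0.00947, adjusted p = 0.0692 and 0.0497), with r at 0.63 without the 2 farthest, 0.72 in July and 0.13 in September. To Drd1 it had r = 0.38 and rho = 0.40 (permutation p = 0.0713 and 0.0605, adjusted p = 0.160 and 0.152). For Th r and rho were both 0.03 (permutation p = 0.883 and 0.886). Slc18a2 varied in the opposite direction to the striatal list, with r = -0.56 and rho = -0.60 (permutation p = 0.00556 and 0.00309, adjusted p = 0.0247 and 0.0177), and with -0.56 without the 2 farthest, -0.90 in July and -0.38 in September. Of the 16 markers, 3 were highest in ExpOF d14+3 replicate 6 and 3 in Control d14 replicate 2. Control d14 replicate 3, Control d14+3 replicate 2, Control d14+3 replicate 3 and ExpOF d14 replicate 5 held the highest value of 2 each. Control d14+3 replicate 1 and ExpOF d14 replicate 2 did so for 1 each. ExpOF d14 replicate 5 held the highest Rgs9 (52.4 CPM) and Bcl11b (17.5 CPM), and also the highest Drd1 (9.58 CPM), Adora2a (4.28 CPM) and Maoa (86.4 CPM). Its total count was the lowest of all, 8928182. Without this library the d14 log2 fold change was 0.21 for Drd1 and -0.27 for Adora2a. The summed level of the list was 987 to 1030 CPM in Control d14, 967 to 1053 in ExpOF d14, 964 to 1065 in Control d14+3 and 929 to 1068 in ExpOF d14+3, with none of its 16 genes called between the diets on either day. Between the days in control mice, 4 were higher and 5 lower at an unadjusted p-value under 0.05, with 1 called in each direction. Among all genes 6.81% were higher and 5.93% lower at this threshold, and 1.15% were called. Between the days in ExpOF mice, 3 were higher and 5 lower, against 5.39% and 2.40% of all genes, and none was called.

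Noradrenaline and serotonin neurons use some of the same enzymes and Slc18a2. Their markers (Dbh, Slc6a2, Phox2a, Tph2, Slc6a4 and Fev) were near 0, with a summed level of 0.453 to 2.09 CPM over all libraries. Phox2a was at 0 in 12 of the 23 libraries and Dbh at most 0.242 CPM. Thalamic markers (Tcf7l2, Prkcd, Lef1, Plekhg1 and Rora) were higher in Control d14+3 than in Control d14 for 5 of 5 genes, each with an unadjusted p-value under 0.05, and 2 of them were called. Among all genes 1.15% were called and 12.7% had such a p-value, 6.81% higher. Their summed level was 155 to 437 CPM in Control d14 and 369 to 759 CPM in Control d14+3, and 160 to 335 and 352 to 762 CPM in ExpOF mice. Its part in the differences of Ddc and Slc6a3 between the days was not tested. Pituitary markers (Prl, Gh, Pou1f1, Cga, Tshb, Fshb and Gnrhr) summed to at most 105 CPM in Control d14 and 20.1 CPM elsewhere. Cortical markers (Neurod6, Tbr1, Slc17a7, Neurod2 and Emx1) had a median sum of 17.8 CPM in Control d14, 19.1 in ExpOF d14, 47.5 in Control d14+3 and 38.3 in ExpOF d14+3. All 13 hypothalamic markers were tested, with 4 lower and 1 higher on d14 before adjustment (p under 0.05). Among all genes 26.7% had such a p-value on d14, 13.1% higher and 13.6% lower. In Control d14+3 against Control d14, 12 of the 13 were lower and 2 were called. Their sum was 759 to 1347 CPM in Control d14, 732 to 985 in ExpOF d14, 617 to 904 in Control d14+3 and 535 to 788 in ExpOF d14+3. The part of these marker differences in the lower Ddc of Control d14+3 was not tested.

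Around the 9 genes, those that supply tetrahydrobiopterin, the cofactor of tyrosine hydroxylase, had lower values in ExpOF d14 mice for 6 of 6, namely 5 enzymes and Gchfr, which regulates the first enzyme. An unadjusted p-value under 0.05 was found for 4 of them, against 26.7% of all genes (13.6% lower), and none was called. These were Pcbd1 (log2 fold change -0.27, edgeR adjusted p = 0.135), Qdpr (-0.31, adjusted p = 0.136), Spr (-0.34, adjusted p = 0.146) and Pts (-0.14, adjusted p = 0.177). The first enzyme of the route, Gch1, had -0.16 with an adjusted p-value of 0.539. Gchfr had -0.43 with an adjusted p-value of 0.334. On d14+3 none of the 6 had an unadjusted p-value under 0.05. In Control d14+3 against Control d14 the 6 were also all lower, 2 with an unadjusted p-value under 0.05, against 12.7% of all genes (5.93% lower).

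Of the genes of dopamine breakdown and further amine synthesis (Maob, Aldh2, Aldh1a1, Dbh and Pnmt), 3 of 5 were tested. All 3 had lower values in ExpOF d14 mice, 1 with an unadjusted p-value under 0.05 (Aldh1a1, -0.34, edgeR adjusted p = 0.142). Over all genes tested, 13.1% were higher and 13.6% lower with an unadjusted p-value under 0.05 on d14. On d14+3 these shares were 2.91% and 4.20%, and the counts below are to be read beside them. Of the other receptors, Drd3, Drd5 and Adora1 were tested and none had an unadjusted p-value under 0.05 on either day. Among 13 genes of receptor signalling (Gnal, Gnas, Gng7, Gnao1, Adcy5, Pde1b, Pde10a, Rgs9, Ppp1ca, Ppp1cb, Prkaca, Cdk5 and Arrb2), 2 were higher and 3 lower at that threshold on d14, and 2 were lower on d14+3. The 2 higher ones were Gnal (0.16), the G protein subunit that couples the D1 and Adora2a receptors to adenylyl cyclase, and Ppp1cb (0.33), a catalytic subunit of protein phosphatase 1, which DARPP-32 inhibits. The 3 lower ones were Gnas (-0.18), another stimulatory G protein subunit, Ppp1ca (-0.18), another catalytic subunit of the phosphatase, and Arrb2 (-0.16), a beta-arrestin. The median log2 fold change of the 13 genes was 0.01, against -0.02 over all genes. Of 6 genes that regulate hypothalamic dopamine neurons (Prlr, Dlx1, Dlx2, Pax6, Otp and Isl1), Prlr (0.44), the prolactin receptor, was higher and Dlx2 (-0.33) lower in ExpOF d14 mice at this threshold, and Dlx2 (-0.26) was lower again on d14+3. None of these lists had a called gene between the diets on either day. In Control d14+3 against Control d14, 3 of the 6 regulator genes were lower with an unadjusted p-value under 0.05, and 1 was called. Of the 13 signalling genes, 2 were higher and 1 lower at that threshold, and 1 was called, higher. Among all genes 6.81% were higher and 5.93% lower at that threshold, and 1.15% were called.

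The genes whose deviations were most like those of each of the 9 were looked up among the tested genes with a mean of at least 50 counts, as a description over 23 libraries that share dissection and depth. For Slc6a3 they were Chrna6 (r = 0.96), Chrnb3 (0.90), the partner subunit in the same receptor, and Aldh1a1 (0.85). For Th they were Aldh1a1 (0.86), Chrna6 (0.85) and Mmel1 (0.84), and for Ddc Tmem237 (0.78), Aldh1a1 (0.78) and Mmel1 (0.77). Slc18a2 was most like Pdgfd (0.86), Cfap300 (0.82) and Mospd1 (0.79), none of which was among the nearest genes of Th, Ddc or Slc6a3. For the receptors they were Tox (0.79), 9330121K16Rik (0.77) and Memo1 (0.74) for Drd1, Chn1 (0.81), Inf2 (0.80) and Cog4 (0.80) for Drd2, and Spry2 (0.80), Lmo7 (0.78) and Kcnab1 (0.78) for Adora2a. Ppp1r1b was nearest to Akain1 (0.80), Col9a3 (0.78) and Acad8 (0.78), and Maoa to Tm9sf3 (0.91), Rab5a (0.91) and Csnk1a1 (0.91).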

How the data were processed

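Hypothalamic RNA of 24 mice was sequenced as poly-A selected, stranded libraries with paired ends. Per the labels, the authors used STAR with the mm10 genome and featureCounts 1.6.4, and they deposited raw counts per gene, without normalization, with gene positions and lengths. Whether counting used strand is not given in the sources used here. The library removed by the study is not named in the labels and was identified by matching the mean counts in its supplement. Groups, cohorts, extraction rounds and RIN came from the labels. Counts were tested in R 4.3.3 with edgeR 4.0.16 (TMM scaling, filterByExpr keeping genes by count thresholds of 10 per library and 15 in total, robust quasi-likelihood model of 4 groups in 23 libraries). Log2 CPM used a prior count of 2. RPKM used the deposited gene lengths. Single values were compared with two-sided exact permutation tests. The 9 genes and all lists were chosen with earlier results of these data known. The genes named are the 9, the genes of the lists, and for each of the 9 the 3 genes with the highest correlation. Alternatives were DESeq2 1.42.0, its size factors, a minimum of 1 count in total as the filter, all 24 libraries, RIN or cohort and extraction round as covariates, a replicate block, each cohort alone and each library left out. The tests were tried on simulated data. Some genes first placed on the lists are not reported here and were left out of them, for a reason that did not depend on their values.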

Additional observations from a re-analysis of the deposited data

Results flagged for a closer look

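Of the values, 3 stood out from their group or came from the library that was not used. A gap test was applied to the CPM of groups of 5 and 6 libraries, and 2 of the 36 combinations of gene and group were set apart. The test sets apart about 1 in 20 groups by chance if values are normally distributed. Whether CPM meets this was not tested, so the rate for these data is not known. Slc6a3 in Control d14+3 replicate 4 was 38.6 CPM, and the next highest mouse of that group had 18.5 CPM. Without this library the Slc6a3 log2 fold change between ExpOF d14+3 and Control d14+3 was 1.17 in place of 0.74. Adora2a in ExpOF d14 replicate 5 was 4.28 CPM, and the next highest mouse of that group had 1.85 CPM. This value rests on few counts in the library with the lowest total. Ppp1r1b was 51.0 CPM in Control d14 replicate 4, the library that was left out, above the highest value of 44.5 CPM in the 5 libraries of that group that were used. With all 24 libraries the Ppp1r1b log2 fold change on d14 was -0.52 in place of -0.36, with an adjusted edgeR p-value of 0.0823.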

How the results depend on the processing

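The number of genes called moved with the test and the libraries. Between the diets on d14, edgeR called 1 gene, DESeq2 166, and 0 in either cohort alone, and 1 to 4220 with 1 library left out, the highest without Control d14 replicate 1. On d14+3 the 0 called became 55 with DESeq2 and 26 with RIN as a covariate, and stayed 0 with each library left out, as did the interaction. Between the days in control mice, the 218 called became 531 with DESeq2, 33 with the replicate block and 0 in each cohort, and 24 to 313 with 1 library left out. In ExpOF mice the 0 called became 202 with DESeq2, 78 with cohort and extraction round as covariates, and 0 to 157 with 1 library left out, the highest without ExpOF d14+3 replicate 3. Of the 9 genes, 1 was called on d14 with DESeq2 and 0 to 3 with 1 library left out. Between the days in control mice the 1 called became 0 with all 24 libraries, with the replicate block and in each cohort, and 0 to 1 with 1 library left out. The cause of these moves was not tested. Replicate numbers did not pair the mice: over 22 pairs of same-numbered libraries in the 4 comparisons of groups, the correlation of deviations ranged from -0.403 to 0.353, and 4 exceeded 0.1. The 5 pairs between the control groups ranged from -0.397 to -0.278. With the block, the adjusted p-value of Ddc in that comparison was 0.105.

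The sign changed in 38 settings, none of them past the threshold. On d14, the log2 fold change of Adora2a became 0.012 with DESeq2, 0.21 in July, -0.27 to 0.13 with 1 library left out and, as a difference in mean log2 CPM, -0.029 with all 24 libraries, and Slc18a2 became 0.021 with RIN as a covariate and, as a difference in means, 0.0064 with all 24. On d14+3 in September, Th was -0.033, Slc6a3 -0.25, Drd2 -0.075 and Maoa -0.010. With 1 library left out there, Maoa was -0.012 to 0.044, Drd2 -0.033 to 0.078 and Ddc -0.0011 to 0.082. Between the days in control mice, Maoa was -0.018 with RIN as a covariate, -0.0098 with the replicate block and -0.027 to 0.032 with 1 library left out, Adora2a was -0.15 in July, and with 1 library left out Slc6a3 was -1.40 to 0.13 and Ppp1r1b -0.27 to 0.064, both highest without Control d14 replicate 5. In ExpOF mice, Slc18a2 was -0.044 with RIN as a covariate, -0.25 in September and -0.096 to 0.11 with 1 library left out, and Ppp1r1b -0.058 in July and -0.052 to 0.13 with 1 library left out. The interaction of Ppp1r1b was -0.028 to 0.30 with 1 library left out. Adora2a and Drd1 rest on the fewest reads, with 18 to 101 and 85 to 244 counts per library.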
